A study of Mus musculus with 5 samples.

Results

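The keratin family of genes was followed through 5 libraries of mouse visceral fat, from lean mice and from mice fed fat with and without resveratrol. Its members were all rows of the deposited count table whose gene symbol was Krt followed by a number and at most 1 letter, which left out the keratin-associated proteins. This gave 54 genes of 78334 in the table, of which 27 were type I, 26 type II and 1, Krt222, neither. RNA came from visceral adipose tissue of male C57BL/6 mice, an inbred strain. The control group had 1 library, from standard chow and vehicle. The obesity group had 2 libraries from mice fed 60% of their calories as fat for 8 weeks, starting at 8 weeks of age, and then given vehicle. The resveratrol group had 2 libraries from the same diet followed by resveratrol, a plant polyphenol, at 2.25 mg/kg. Vehicle or resveratrol was given daily by gastric tube for 28 days from 16 weeks of age, and collection was after 12 weeks of diet and treatment. The labels name neither the fat depot nor the mouse behind each library. If libraries share a mouse, the p-values below reflect only technical spread.

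Keratins are the intermediate filament proteins of epithelial cells. A filament needs a type I and a type II keratin in equal parts, and which ones a cell uses marks its kind: Krt8 and Krt18 in simple epithelia, Krt5 and Krt14 in the basal layer of stratified epithelia, and the hair keratins in the hair shaft. Adipocytes, macrophages and fibroblasts build their cytoplasmic filaments mainly from vimentin, and muscle from desmin. In a fat pad, simple keratins are known from the mesothelium, the sheet of cells that covers its surface. Hence keratin transcripts in such tissue are commonly read as traces of epithelium or mesothelium.

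Total counts ranged from 19540961 to 27026597 per library. Levels are CPM, counts scaled to a fixed library total, with TMM, a factor that makes libraries of unlike composition comparable, and 3 counts correspond to 0.105 to 0.156 CPM. Marker genes pointed to different tissues in different libraries. The 8 adipocyte markers summed to 342 CPM in control, 19770 and 21356 in the obesity libraries, and 4155 and 21275 in the resveratrol libraries. The 12 epididymis markers, genes of the duct that stores sperm, reached a sum of 62682 CPM in control and 4195 in resveratrol library 1, and 7 smooth muscle markers one of 45585 in the latter. The control library and resveratrol library 1 therefore stand apart from what their label says. Results that rest on them are given with and without them where a library could be left out. Obesity library 1, though rich in adipocyte markers, also held 340 CPM of 5 urothelium markers other than Krt20, against 0.143 CPM in its replicate.

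Keratin genes in the mouse lie in a type I cluster and a type II cluster, with the type I gene Krt18 at the end of the type II cluster next to Krt8. In RefSeq gene order the end of that cluster reads Krt4, Krt79, Krt78, Krt8, Krt18. Krt8 and Krt18 were highest in the control library, where Krt79 had 0 counts. The 250 bases before the RefSeq start of Krt79, Krt8 and Krt18 are shown because these neighbours went apart in the libraries. They are from RefSeq on build GRCm38.p6, whereas the counts were made on GRCm39, and lie at chr15:101940325-101940574 (reverse strand), chr15:102004343-102004592 (reverse strand) and chr15:102027966-102028215 (forward strand). They run 5′ to 3′ along the gene, and capitals mark AGGTCA, the half-site that nuclear receptors such as the PPAR family bind.
Krt79: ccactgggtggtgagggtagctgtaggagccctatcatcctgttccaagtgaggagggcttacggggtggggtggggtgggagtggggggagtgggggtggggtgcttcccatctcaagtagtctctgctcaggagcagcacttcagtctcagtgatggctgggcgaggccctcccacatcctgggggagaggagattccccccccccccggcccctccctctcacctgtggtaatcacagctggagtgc
Krt8: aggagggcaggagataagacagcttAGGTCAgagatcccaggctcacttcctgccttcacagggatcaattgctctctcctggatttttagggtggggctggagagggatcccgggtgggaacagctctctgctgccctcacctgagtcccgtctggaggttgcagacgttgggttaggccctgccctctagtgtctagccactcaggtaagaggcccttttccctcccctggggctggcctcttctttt
Krt18: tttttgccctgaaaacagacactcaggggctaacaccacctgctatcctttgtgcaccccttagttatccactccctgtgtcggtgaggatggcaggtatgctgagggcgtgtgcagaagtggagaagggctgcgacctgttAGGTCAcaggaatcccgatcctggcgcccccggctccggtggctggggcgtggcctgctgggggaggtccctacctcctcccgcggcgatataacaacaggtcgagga
AGGTCA was searched on both strands and had 1 match before Krt8, starting at base -225 from the start site, 1 before Krt18 at base -108, and none before Krt79. TATAAA and GGGCGG, the TATA box and the GC box, were searched the same way and had no match in any of these 3 windows. Windows of the same length with a match make up 14.0% for AGGTCA, 12.4% for TATAAA and 32.7% for GGGCGG of 32851 RefSeq promoters. The motifs were counted independently, so their matches may overlap. Of the 19 keratins named below, 12 had a promoter entry, and 4 of those held AGGTCA, 3 TATAAA and 1, Krt7, GGGCGG. Among the 4 with AGGTCA was Krt78, which lies between Krt79 and Krt8, with a match at base -109. Its window is not shown.

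Keratin transcripts were abundant in 3 libraries and scarce in the other 2, and the split ran through both replicated groups. All 54 keratins together summed to 1122 CPM in the control library (95% exact Poisson interval 1110 to 1134). The obesity libraries held 674 and 54.9 CPM, a ratio of 12.3 within the group. The resveratrol libraries held 612 and 109 CPM, a ratio of 5.62. As group means these are 365 ± 438 CPM (SD, n = 2) in obesity and 360 ± 356 CPM (SD, n = 2) with resveratrol, so the spread within each group was as large as its mean. Without Krt79, Krt80 and Krt222, picked with their levels known, the sums were 627 and 11.7 CPM in obesity, a ratio of 53.6. With resveratrol they were then 602 and 53.4 CPM, a ratio of 11.3. Intervals here and below cover counting error only. Since the tissue was measured in bulk, fewer cells of a type and less RNA per cell cannot be told apart.

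Of the 54 keratins, 19 reached 1 CPM in at least 1 library, 18 had some counts but stayed at or under 0.592 CPM, and 17 had 0 counts in all 5 libraries. The number at 1 CPM or more was 11 in the control library, 12 and 7 in the obesity libraries, and 15 and 9 in the resveratrol libraries. All 7 simple epithelial keratins reached 1 CPM somewhere, against 4 of 7 basal and stress keratins, 4 of 12 suprabasal, mucosal and corneal keratins, 3 of 24 hair and root sheath keratins, and 1 of 4 others. Among the 19, the highest library was the control for 7, obesity library 1 for 5, resveratrol library 1 for 5, and obesity library 2 and resveratrol library 2 for 1 each. Simple keratins made up 85.0% of all keratin counts in the control library, 73.1% in obesity library 1 and 85.1% in resveratrol library 1. Their share was 35.0% (exact binomial interval 32.2 to 37.8) in obesity library 2 and 57.1% (55.2 to 58.9) in resveratrol library 2. These shares include Krt80, which alone held 22.5% of all keratin counts in obesity library 2 and 18.3% in resveratrol library 2. It held 0.192% in control, 0.989% in obesity library 1 and 0.141% in resveratrol library 1.

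**Figure D1:**
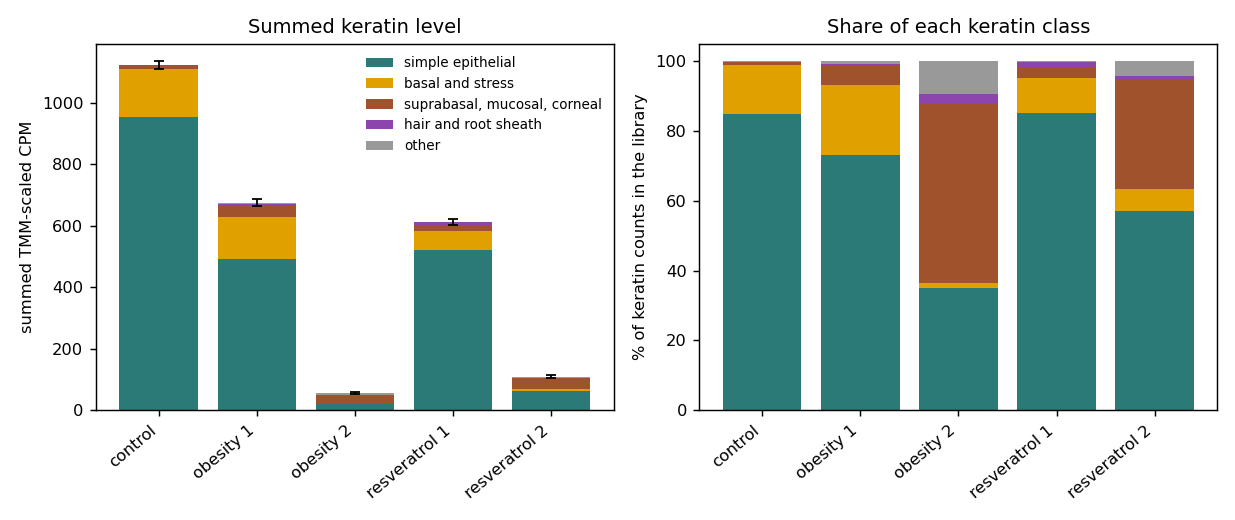
Left, summed TMM-scaled CPM of all 54 keratins in each of the 5 libraries, stacked by keratin class, with 95% exact Poisson intervals of the sum as bars. Right, the percent of each library's keratin counts in each class. The control library (1122 CPM), obesity library 1 (674) and resveratrol library 1 (612) stand far above obesity library 2 (54.9) and resveratrol library 2 (109), and in obesity library 2 the suprabasal class, most of it Krt79, holds the largest share.

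Krt18 and Krt8 are the partners of simple epithelia, and Krt18 had the widest range of the simple keratins with counts in every library. Krt18 (ENSMUSG00000023043) was at 462 CPM in control, at 122 and 0.523 in obesity, and at 149 and 7.34 CPM with resveratrol. Krt8 (ENSMUSG00000049382) was at 238, 58.4, 2.04, 146 and 6.61 CPM in the same order. Library 1 of each group was high for both genes and library 2 low, 233 times lower for Krt18 in obesity and 20.3 times with resveratrol. Krt8 has a pseudogene copy, Krt8-ps, with 98.6% identity over 941 bases, so its counts are uncertain. Krt19, the smallest keratin, found in ducts and mesothelium, was at 122 CPM in control, 115 and 3.42 in obesity, and 206 and 14.3 with resveratrol. Unlike Krt18, it was highest in resveratrol library 1.

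Krt7 and Krt20 singled out obesity library 1. Krt7, a type II keratin of ducts, urothelium and mesothelium, was at 164 CPM there but 0.761 CPM in its replicate, obesity library 2. The control library had 48.8 CPM of it, and the resveratrol libraries, at 17.0 and 13.8 CPM, were 1.23 times apart. Krt20, a type I keratin of the urothelial surface and the gut lining, had 23.5 CPM in obesity library 1 and between 0.0951 and 0.314 CPM in the other 4 libraries. Those 4 levels rest on 2 to 9 counts each. Krt23, a type I keratin, was at 79.9 CPM in control, 3.18 and 0 in obesity, and 1.41 and 0 CPM with resveratrol. It was thus largely a gene of the control library.

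Krt80 ran the other way. This type II keratin, which lies near desmosomes, was at 2.16 CPM in control, 6.67 and 12.4 in obesity, and 0.862 and 20.0 CPM with resveratrol. The libraries high in Krt18 were those low in Krt80.

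The 7 basal and stress keratins summed to 157 CPM in control, 136 and 0.808 in obesity, and 61.2 and 6.80 CPM with resveratrol, high where simple keratins were high. Krt5 (ENSMUSG00000061527), the type II keratin of basal cells, reached 132 CPM in obesity library 1, above the 57.2 CPM of the control library and the 42.9 CPM of resveratrol library 1. It had 0 counts in obesity library 2 and in resveratrol library 2 (floors of 0.143 and 0.117 CPM). Krt14, its usual type I partner, was at 70.0 CPM in control, 3.07 and 0.808 in obesity, and 15.6 and 6.76 with resveratrol. Both resveratrol libraries lay above both obesity libraries, and the control library above all. Krt15, another basal type I keratin, was at 24.0 CPM in control, 0.417 and 0 in obesity, and 1.63 and 0 with resveratrol. Krt17, a keratin of basal and stressed epithelium, was at 5.36 CPM in control, at 0 counts in both obesity libraries, and at 1.09 and 0.0389 CPM with resveratrol. The stress keratins Krt6a, Krt6b and Krt16 stayed under 1 CPM in all 5 libraries.

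The partners did not keep a fixed ratio. Compared as CPM per kilobase of the principal transcript, Krt18 stood at 2.65 times Krt8 in the control library (95% exact interval 2.57 to 2.72) and 2.85 times (2.65 to 3.06) in obesity library 1. The ratio was 1.39 (1.32 to 1.46) and 1.51 (1.23 to 1.87) in the resveratrol libraries, and 0.349 (0.162 to 0.687) in obesity library 2, on 11 counts of Krt18. Krt14 stood at 1.58 times Krt5 per kilobase in the control library (1.48 to 1.69), 0.0301 times (0.0229 to 0.039) in obesity library 1 and 0.470 times (0.414 to 0.532) in resveratrol library 1. The Krt14 to Krt5 ratios thus differed beyond counting error between all 3 libraries that held Krt5. Summed over the family, type I keratins stood at 3.19 times type II per kilobase in the control library, 1.17 and 0.285 times in obesity, and 2.40 and 0.702 times with resveratrol. The lengths are those of GENCODE M21 on GRCm38, and a gene with several transcripts may have another effective length.

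Krt79 and Krt222, like Krt80 above, were highest in the 3 libraries rich in fat transcripts. Krt79 (ENSMUSG00000061397), a type II keratin known from the hair canal and sebaceous duct, had 0 counts in the control library, where 3 counts are 0.105 CPM. It was at 35.8 and 25.8 CPM in obesity and at 8.62 and 31.1 CPM with resveratrol. Resveratrol library 1 was the lowest of the 4 libraries on the high-fat diet. Krt79 took 46.9% of all keratin counts in obesity library 2 (44.0 to 49.9) and 28.6% in resveratrol library 2 (26.9 to 30.3), but 5.31% in obesity library 1 and 1.41% in resveratrol library 1. Per kilobase of the principal transcript it was the highest keratin in obesity library 2, at 12.3, and in resveratrol library 2, at 14.8. Krt222, a keratin-like gene outside both types, was at 0.209 CPM in control, 5.26 and 5.09 in obesity, and 0.499 and 4.47 CPM with resveratrol. The adipocyte markers were lowest in the same 2 libraries, the control and resveratrol library 1. The part of adipocyte content in the Krt79, Krt80 and Krt222 levels was not tested.

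Its neighbours Krt4 and Krt78 did not follow Krt79. Krt4, a type II keratin of mucosal epithelium, was at 3.68 CPM in resveratrol library 1, at 0.0777 to 0.313 CPM in the other libraries on the high-fat diet, and at 0 counts in the control library. Krt78 was at 3.09 CPM in resveratrol library 1, 0.311 CPM in resveratrol library 2, 0.156 and 0.190 CPM in obesity, and 0 counts in the control library. Krt10, a type I keratin of the suprabasal epidermis, was the most even of the 19 keratins, at 8.74 CPM in control, 2.97 and 2.04 in obesity, and 3.27 and 2.29 with resveratrol. Its epidermal partner Krt1 stayed under 1 CPM everywhere.

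The 24 hair and root sheath keratins summed to 9.98 CPM in resveratrol library 1 and to 0.938 to 1.92 CPM in the other 4 libraries. Krt35, a type I keratin of the hair shaft, had 136 counts (6.17 CPM) in resveratrol library 1 and 0 counts in the other 4 libraries. Krt32, its neighbour in the type I cluster, was at 3.22 CPM there, had 0.557 CPM in control and 0 counts in the other 3. Krt36 went otherwise, with 1.52 CPM in obesity library 2, 0.855 in resveratrol library 2, and 0.208 to 0.272 CPM in the other libraries. The type II hair genes Krt81, Krt83, Krt86 and Krt87 share stretches of at least 95% identity, and of these Krt87 reached the most counts, 17 in the control library.

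**Figure D2:**
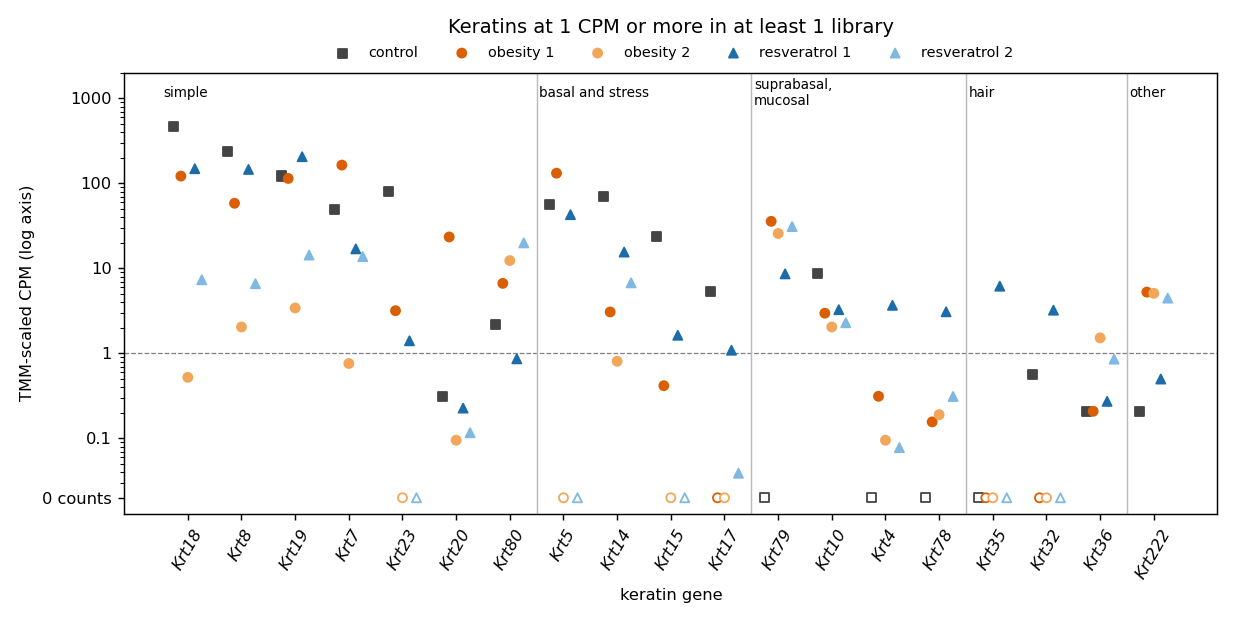
TMM-scaled CPM (log axis) of the 19 keratins that reached 1 CPM in at least 1 library, with 1 point for each of the 5 libraries and open points for 0 counts. Krt18, Krt8, Krt19 and Krt5 stand higher in the control library, obesity library 1 and resveratrol library 1 than in the other 2, while Krt79 is at 0 counts in control but at 25.8 and 31.1 CPM in obesity library 2 and resveratrol library 2.

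**Figure D3:**
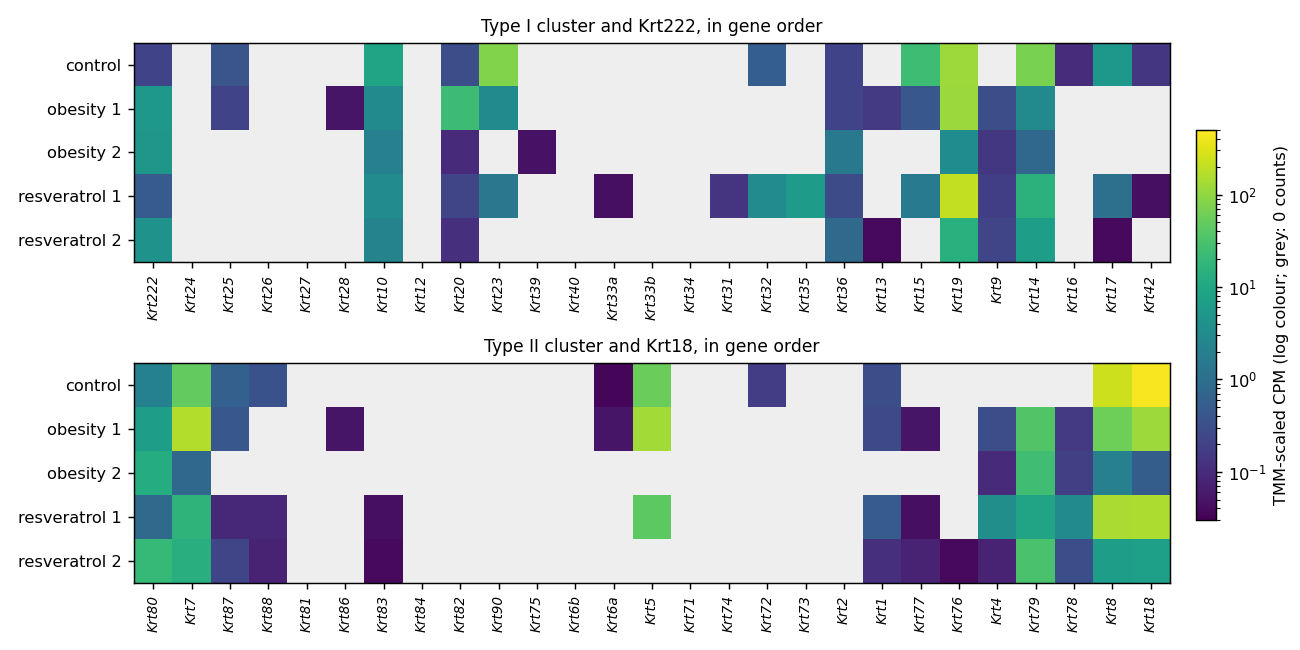
TMM-scaled CPM (log colour, grey for 0 counts) of all 54 keratins in the 5 libraries, with the genes in RefSeq order along the type I cluster (top) and the type II cluster (bottom). The filled columns are scattered along both clusters, and Krt79 has its own pattern between Krt4 and Krt78.

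Genes that work with keratins separated into those that went with the epithelial libraries and those that did not. The epithelial adhesion list, 10 genes, summed to 2098 CPM in control, 182 and 1.43 in obesity, and 581 and 2.06 CPM with resveratrol. Epcam, an adhesion protein of simple epithelia, was at 385 CPM in control, 9.02 and 0 in obesity, and 121 and 0.0389 with resveratrol. Trp63, the transcription factor of basal cells that drives Krt5 and Krt14, was at 44.2 CPM in control, 18.6 and 0.808 in obesity, and 19.0 and 1.20 with resveratrol. Dsp, the desmosomal plaque protein that binds keratin filaments, was at 115 CPM in control, 14.5 and 0.0476 in obesity, and 71.5 and 0.738 with resveratrol. These genes were thus low in the same 2 libraries in which keratins were low. Other anchoring genes are also used outside epithelium: Jup, the plakoglobin gene, was at 162 CPM in control, 244 and 239 in obesity, and 158 and 426 with resveratrol. Plec, which links filaments of several kinds, was at 209, 209 and 308 CPM in the control and obesity libraries, and 617 and 279 with resveratrol. Neither gene was low in the libraries poor in keratins. Vim, the vimentin gene, was at 52.3 CPM in control, 1691 and 1903 in obesity, and 405 and 1764 with resveratrol. Des, the desmin gene of muscle, was at 4493 CPM in resveratrol library 1 and between 25.9 and 97.4 CPM elsewhere.

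Markers of particular epithelia were not high in the same libraries, as the map of marker sums shows. The 5 urothelium markers other than Krt20 summed to 340 CPM in obesity library 1, all 5 at 1 CPM or more, against 0.143 CPM in obesity library 2, with 4 of the 6 listed genes (Upk2, Upk3a, Foxq1 and Snx31) at 0. Their sum was 44.8 CPM in control, and 32.3 and 1.48 CPM with resveratrol. Upk3a, a plaque protein of the urothelial surface, was at 84.2 CPM in obesity library 1 and at most 0.836 CPM elsewhere. In the same library Sprr1a, a gene of cornified envelopes, was at 226 CPM and at most 1.14 CPM elsewhere. The 8 epidermis markers summed to 257 CPM there and to 14.5 to 21.5 CPM in the other 4 libraries, and Flg, the filaggrin gene, was at most 0.906 CPM in any library. The epididymis list, with 12 of 12 genes at 1 CPM or more in the control library, had 10 of 12 at 0 counts in obesity library 2 and in resveratrol library 2. In resveratrol library 1 its sum came from Crisp1 at 3393 CPM and Spink8 at 795 CPM, with 3 of 12 genes at 1 CPM or more and Lcn8, Lcn9, Cst11 and Bsph1 at 0. The part of these markers' tissues in the keratin levels was not tested.

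Mesothelium markers were highest in a library with few keratin counts. The 8 genes summed to 273 CPM in resveratrol library 2, all 8 at 1 CPM or more, with Msln, the mesothelin gene, at 65.3 CPM and Upk3b at 108 CPM. In obesity library 2 they summed to 21.6 CPM, with 6 of 8 at 1 CPM or more and Msln at 4.90 CPM. In resveratrol library 1 the sum was 38.0 CPM, mostly from Gpm6a at 27.9 CPM, with Msln at 1.82 and Upk3b at 2.50 CPM. Msln was thus above 1 CPM in 3 of the 5 libraries, but the listed genes did not move together. Upk3b was at 23.6 CPM in obesity library 1, above its 5.99 CPM in obesity library 2, and at 0.209 CPM in control. In the control library and obesity library 1 the sums of 78.8 and 109 CPM came mostly from Upk1b, which urothelium also uses, at 76.5 and 82.4 CPM, and Msln was at 0.348 CPM and at 0 counts. Between the 2 libraries richest in adipocyte markers and poorest in keratins, resveratrol library 2 held more than obesity library 2 of Krt19 (14.3 against 3.42 CPM), Krt7 (13.8 against 0.761), Krt18 (7.34 against 0.523) and Krt8 (6.61 against 2.04). This is a comparison of 2 libraries with no replicate check, and the mesothelial part in it was not tested.

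**Figure D4:**
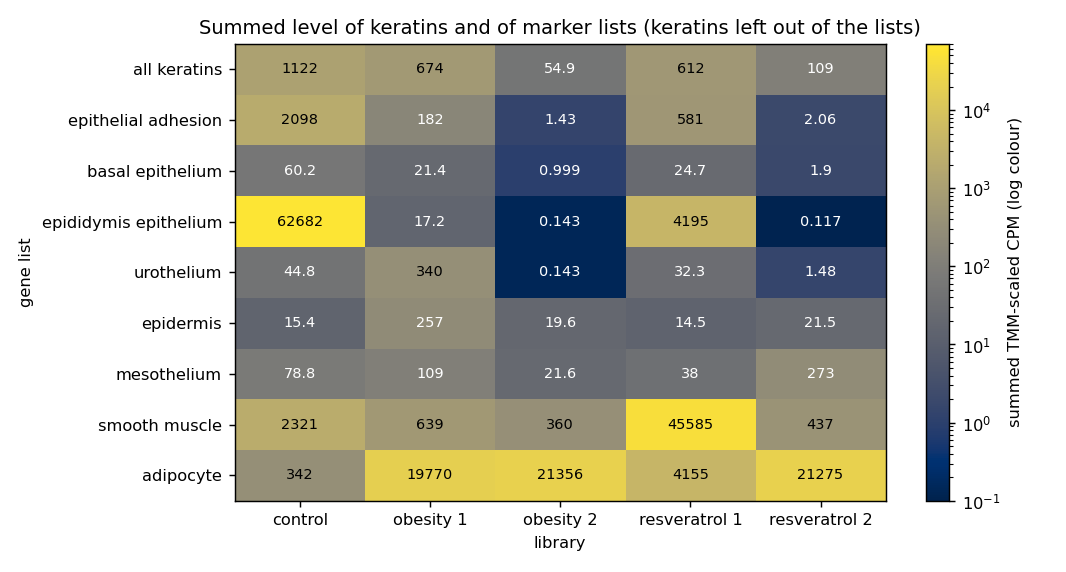
Summed TMM-scaled CPM (printed in each cell, log colour) of all 54 keratins and of 8 marker lists in the 5 libraries, with keratins left out of the marker lists. Keratins and epithelial adhesion genes are low in obesity library 2 and resveratrol library 2, urothelium markers peak in obesity library 1 at 340 CPM, epididymis markers in the control library at 62682 CPM, and mesothelium markers in resveratrol library 2 at 273 CPM.

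Obesity against control asked how diet-induced obesity changed visceral fat. Of the 54 keratins, 21 passed the filter on low counts, all 19 named above among them, and a gene can pass through a single high library. By edgeR's quasi-likelihood test 0 of the 21 reached the adjusted threshold of 0.05, and 0% of all 24779 genes did. The smallest adjusted p was 0.160, for Krt79, which averaged 30.8 ± 7.09 CPM (SD, n = 2) in obesity, with 0 counts in control. With the control set to 3 counts this is at least 295-fold higher. Krt14 averaged 1.94 ± 1.60 CPM (SD, n = 2) in obesity, beside 70.0 CPM in control. The log2 difference was -5.17 (SE 0.993). Krt10 differed by -1.80 (SE 0.619) and Krt222 by 4.60 (SE 1.78) on the log2 scale. For Krt17, at 0 counts in obesity, the control level was at least 35.9-fold higher. Unadjusted p was under 0.05 for 4 keratins (Krt10, Krt14, Krt17 and Krt79) of 21, against 24.3% of all genes. The groups did not overlap for 16 of 21 keratins, against 89.4% of all genes. Of these, 5 were higher in obesity (40.8% of all genes) and 11 lower (48.6%). The median log2 difference of the 21 was -1.05, also with genes at 0 counts in a group set to their bound, and that of all genes -0.10. The keratin median was -5.96 without obesity library 1 (20 keratins tested), -0.09 without obesity library 2 and -0.36 with the replicate number as a block, so its size rested on single libraries. Krt5 and Krt7 lay on both sides, obesity library 1 above the control library and obesity library 2 below it.

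These calls depended on the tool and on which resveratrol libraries helped to estimate the spread. In each fit that lacked a resveratrol library, all of the spread came from the 2 obesity libraries. In the fit without resveratrol library 1, and in that of only the obesity and control groups, Krt17 passed the filter through the control library alone. It had 154 counts there and 0 in both obesity libraries. Its direction in those fits was set by the filter, and its call in them is not a result about it. DESeq2 called 4 keratins (Krt14, Krt17, Krt222 and Krt79), when it called 18.3% of all genes. Without resveratrol library 1, edgeR called 5 of 17 tested keratins (Krt10, Krt17, Krt222, Krt79 and Krt80), beside 37.9% of all genes. Without resveratrol library 2 it called those 5 and Krt32, 6 of 21, beside 37.3% of all genes. With no filter on low counts it called Krt14 and Krt79, 2 of 37 keratins then tested, beside 5.92% of all genes. The called shares of keratins, with Krt17 counted where it was called, were near or under those of all genes in each of these settings. Without either obesity library it called 0. The control library is the sole lean library, so diet and its epididymal transcripts cannot be told apart.

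Resveratrol against obesity asked how resveratrol changed fat on that diet. No keratin passed (0% of all genes), and the smallest adjusted p was 0.899. Krt14 had the smallest unadjusted p, 0.0381, the sole keratin of 21 under 0.05, against 2.34% of all genes. It was at 11.2 ± 6.23 CPM (SD, n = 2) with resveratrol and 1.94 ± 1.60 CPM (SD, n = 2) without, a log2 difference of 2.52 (SE 0.840). Groups overlapped for 17 of the 21 keratins. The 4 that did not overlap were Krt14, Krt17 and Krt78, higher with resveratrol, and Krt222, lower, against 33.7% of all genes (16.9% higher and 16.7% lower). Krt17 had 24 and 1 counts with resveratrol and none without, and Krt222 was at 4.47 CPM in resveratrol library 2 against 5.09 CPM in obesity library 2. Krt79 differed by -0.63 (SE 0.692) on the log2 scale, and by 0.03 (SE 0.287) without resveratrol library 1. The median difference over the 21 was 0.35, and 0.05 over all genes. It was 5.03 without obesity library 1 (20 tested), 1.29 without resveratrol library 2, -0.20 without resveratrol library 1 (17 tested), -0.22 without the control library (12 tested) and 1.44 with the replicate block. Neither its size nor its sign held across these fits.

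Which resveratrol library was left out decided what was called here. Without resveratrol library 2, so that library 1 stood alone for the treatment and the obesity pair gave all of the spread, edgeR called 8 of 21 keratins beside 19.5% of all genes. These were Krt4, Krt17, Krt32, Krt35 and Krt78, higher in that library, and Krt79, Krt80 and Krt222, lower. Krt4, Krt35 and Krt78 reached the minimum count of 10 in that library alone and so passed the filter through it. Their direction was set by this, and the share called is not a result about keratins. Without resveratrol library 1 it called 0 keratins and 0.136% of all genes, and Krt18, Krt8 and Krt19 turned from higher to lower, with log2 differences of -3.05, -2.18 and -2.03. DESeq2 called 0 keratins and 0.884% of all genes. For Krt14 the log2 difference was positive in each of these fits. Its adjusted p stayed above 0.05 in each of them.

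Resveratrol against control shares the resveratrol libraries with the second comparison and the control library with the first. No keratin passed (0% of all genes), and 3 of 21 had an unadjusted p under 0.05, Krt14, Krt78 and Krt79, against 18.5% of all genes. Krt79 was at 19.9 ± 15.9 CPM (SD, n = 2), at least 190-fold above the control floor of 3 counts. It was at least 297-fold above without resveratrol library 1 and at least 82.5-fold without resveratrol library 2. Its adjusted p in edgeR's quasi-likelihood test with all libraries was 0.191. A fit that lacks a resveratrol library sets 1 resveratrol library against 1 control library, with all of the spread taken from the obesity pair. The calls of such a fit hold only if those groups vary like that pair. Krt4, Krt35 and Krt78 passed the filter through resveratrol library 1 alone, so their direction here was set by it. In the fit without resveratrol library 1, Krt17 passed through the control library alone, at 154 counts. Its direction in that fit was likewise set by the filter, and its call is not a result about it. Krt14 differed by -2.65 (SE 0.924) on the log2 scale, with both resveratrol libraries under the control library. The groups did not overlap for 16 of the 21, against 78.7% of all genes, with 5 higher (37.7% of all genes) and 11 lower (41.0%). DESeq2 called 2 keratins, Krt78 and Krt79, when it called 12.5% of all genes. In such a fit without resveratrol library 1 edgeR called 4 of 17 keratins (Krt17, Krt79, Krt80 and Krt222) beside 30.7% of all genes, and without resveratrol library 2 it called Krt4, Krt35, Krt78 and Krt79 beside 17.2%. With no filter it called Krt79 alone, 1 of 37, beside 3.84%. The median over the 21 was -0.86, and 0.05 over all genes. It was -3.07 without resveratrol library 1 (17 tested), -0.43 without resveratrol library 2 and 0.059 with the replicate block, so neither its size nor its sign held.

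In obesity against control 0 of 15 tested desmosome and hemidesmosome genes, 0 of 10 epithelial adhesion genes, 0 of 11 epithelial transcription factors and 0 of 12 other intermediate filament genes passed. The same counts were 0 in both other comparisons. Since 0% of all genes passed in each, these counts say nothing about the lists, which differed in the direction of their values. All 10 adhesion genes were lower in obesity than in the sole control library, which held epididymis transcripts, with a median log2 difference of -4.75. With resveratrol 8 of 10 were higher than in obesity, with a median of 2.22. The adhesion list summed to 581 and 2.06 CPM with resveratrol, and to 182 and 1.43 CPM in obesity. Its higher level with resveratrol thus rested on resveratrol library 1, which stands apart from its label. The desmosome and hemidesmosome list had 7 higher and 8 lower in obesity than in control and a median of -0.60. These medians stand beside -0.10 and 0.05 over all genes in the 2 comparisons.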

How the data were processed

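Extraction used a kit for lipid-rich tissue, and stranded poly-A libraries were sequenced as paired-end reads, per the labels' protocols. The authors deposited raw whole-number counts per Ensembl gene in 5 columns; FastQC, featureCounts and build GRCm39 are named in the submitters' processing notes. The aligner, annotation release and counting strand were not given in the sources used here. Without a known strand setting, reads of opposite-strand genes that overlap 6 of the 19 named keratins by 77 to 263 exonic bases cannot be told apart from theirs. Symbols were matched for 65.7% of identifiers.

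edgeR 4.0.16 in R 4.3.3 kept 24779 genes (filterByExpr by group, minimum count 10, minimum total 15), scaled them by TMM and fitted all 5 libraries at once with the robust quasi-likelihood method, with Benjamini-Hochberg adjustment at 0.05. A group with a single library, the control or one left by leaving out its replicate, was assumed to vary like the groups with replicates. The SE is the absolute log2 difference over the square root of F. Folds against a group at 0 use 3 counts per library. In simulated counts the test found 3% of genes changed 16-fold for obesity against control (22980 genes), 35% for resveratrol against obesity (23117) and 0% for the third comparison (22820).

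Named were all keratins at 1 CPM or more in at least 1 library, and from each companion list up to 4 leading members and those a result turns on. The members and lists were chosen with earlier results of these data known. Other settings tried were size factors by median ratio, unfiltered counts, a minimum count of 30, DESeq2 1.42.0, fits of only the groups compared, a replicate block and each library left out; the fit lacking both the control and the first resveratrol library was chosen after seeing the data. Near-identical copies are alignments between GENCODE M21 transcripts of at least 150 bases and 95% identity.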

Additional observations from a re-analysis of the deposited data

How the results depend on the processing

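The counts of keratins at 1 CPM or more stayed within 1.5 times under every threshold and scaling tried, and the summed levels of the obesity and resveratrol libraries moved by less than the spread between replicates. The control library has no replicate, and its sum moved beyond its counting error, to 1192 CPM on the plain library total and to 1154 CPM with median-ratio size factors.

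In obesity against control, edgeR called 0 genes with all libraries. The counts were 4524 genes and 4 keratins with DESeq2, 2575 and 2 with no filter, and 9269 and 5 with only the 2 groups compared. Leaving out 1 library gave 0 to 9227 genes and 0 to 6 keratins. In resveratrol against obesity the counts were 219 genes with DESeq2 and 25 with no filter. Leaving out 1 library gave 0 to 4761 genes and 0 to 8 keratins, and a fit without control and resveratrol library 1, chosen after seeing the data, gave 66 genes and 0 keratins. In resveratrol against control the counts were 3085 genes and 2 keratins with DESeq2, and 1671 and 1 with no filter. Leaving out 1 library gave 0 to 7470 genes and 0 to 4 keratins. Median-ratio size factors and the stricter filter called 0 genes in all 3 comparisons.

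Same-numbered obesity and resveratrol libraries share only a number, and their deviations from the group means correlated at 0.28 over tested genes. With the replicate block 0 genes and 0 keratins were called in each comparison. Under it Krt7 and Krt80 changed sign in resveratrol against obesity, to 0.22 and -1.03, and in resveratrol against control Krt19, Krt7, Krt20 and Krt80 did, to 1.08, 1.09, 1.24 and -0.053.

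Leaving out 1 library also changed the sign of log2 differences. For Krt7 in obesity against control they ran from -5.97 (without obesity library 1) to 1.76. In resveratrol against obesity they ran from -3.05 to 7.22 for Krt18, -2.18 to 5.23 for Krt8, -2.03 to 5.02 for Krt19, -3.42 to 4.34 for Krt7, -1.83 to 0.026 for Krt79, -3.45 to 1.08 for Krt80, -0.12 to 0.45 for Krt10 and -1.65 to 1.42 for Krt36. In resveratrol against control they ran from -3.07 to 0.78 for Krt19 and from -1.30 to 3.23 for Krt80. Without both the control library and resveratrol library 1, resveratrol against obesity gave -3.05 for Krt18, -2.18 for Krt8, -2.03 for Krt19, 0.02 for Krt79 and -0.12 for Krt10, where all libraries gave the opposite sign. The construction of these fits, with 1 library in a group whose 2 libraries differ, sets the range. Krt5, Krt15, Krt23 and Krt32 have no value where the group left had 0 counts. Levels at or under 3 counts per library cannot be told from 0.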
